A study of Mus musculus with 6 samples.

Results

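The meningeal fibroblast and matrix genes described here are 33 genes for transport, retinoic acid synthesis, extracellular matrix, growth factor signalling and transcriptional control, listed by name. They are 33 of 17560 genes with a tested coding probe, and were measured in the prefrontal cortex of mice with and without Nrf2. RNA came from 3 Nrf2 knockout and 3 wild type samples, all from male mice of the outbred ICR stock aged 3 to 4 months, each hybridised alone to 1 one-colour Agilent array. Nrf2, the product of Nfe2l2, switches on genes that defend cells against oxidants and toxic compounds. The labels leave unsaid which stretch of Nfe2l2 was deleted, whether the loss was in all cells, or whether the samples came from separate animals. The p-values therefore reflect only how far these samples spread, and that spread may be technical.

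The meninges wrap the brain in layers of dura, arachnoid and pia, and their fibroblasts make collagens, proteoglycans and other matrix proteins. In the developing head these cells also secrete retinoic acid and bone morphogenetic proteins (BMPs) that act on the cortex beneath. Arachnoid barrier cells and fibroblasts along vessels carry transporters for organic ions, sulfate and GABA.

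Values are normalised log2 signals, scaled so that 0 is the 75th percentile of all processed signals on that array. Each gene is given at its brightest tested probe. Nfe2l2 measured −3.74, −3.79 and −3.46 in knockouts 1, 2 and 3, against 0.49, 0.39 and 0.35 in wild types 1, 2 and 3 at that probe, which is −4.08 as a log2 fold change (SE 0.12, adjusted p = 6.14e-04 in limma). The 75th percentile of the signal was 245 to 269 in knockout arrays and 278 to 280.3 in wild type arrays, and the scanner software called 71.0 to 73.4% of an array's probes well above background. Slides were inferred from the scan date in the file headers, arrays with the same scan date being taken as 1 slide. Knockout 1 shared its scan date with the 3 wild type arrays (slide 1), and knockouts 2 and 3 shared another (slide 2). The median local background was 19 and 18 on slide 2, against 23 to 24 on slide 1. Markers of cortical neurons had summed signals of 1231 to 1286 times the array's 75th percentile in knockout samples and 1224 to 1287 times in wild type samples.

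None of the 33 genes passed limma's test at an adjusted p under 0.05, yet all 33 measured lower in the knockout. At the brightest probe the largest difference was that of Mgp, matrix Gla protein, an inhibitor of tissue calcification, at 1.72-fold lower, and the smallest that of Serpinf1, at 1.01-fold lower. The log2 fold changes ran from −0.79 to −0.012 with a median of −0.36, against a median of −0.0051 over all genes, of which 51.3% lay below 0. The smallest adjusted p was 0.307. Over all genes, 0.0114% passed on the lower side and 0.00569% on the higher side. At an unadjusted p under 0.05, 17 members were lower and 0 higher, against 9.46% and 2.93% of all genes. The groups did not overlap for 13 members (39.4%), all lower in the knockout, against 12.9% of all genes lower and 6.47% higher. The 33 genes were chosen with earlier results of these data known, so these counts describe the list and do not test it. Genes measured on the same arrays are not replicates, so no p is given for the set. In bulk tissue, fewer cells of a type and less RNA per cell cannot be told apart.

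**Figure D1:**
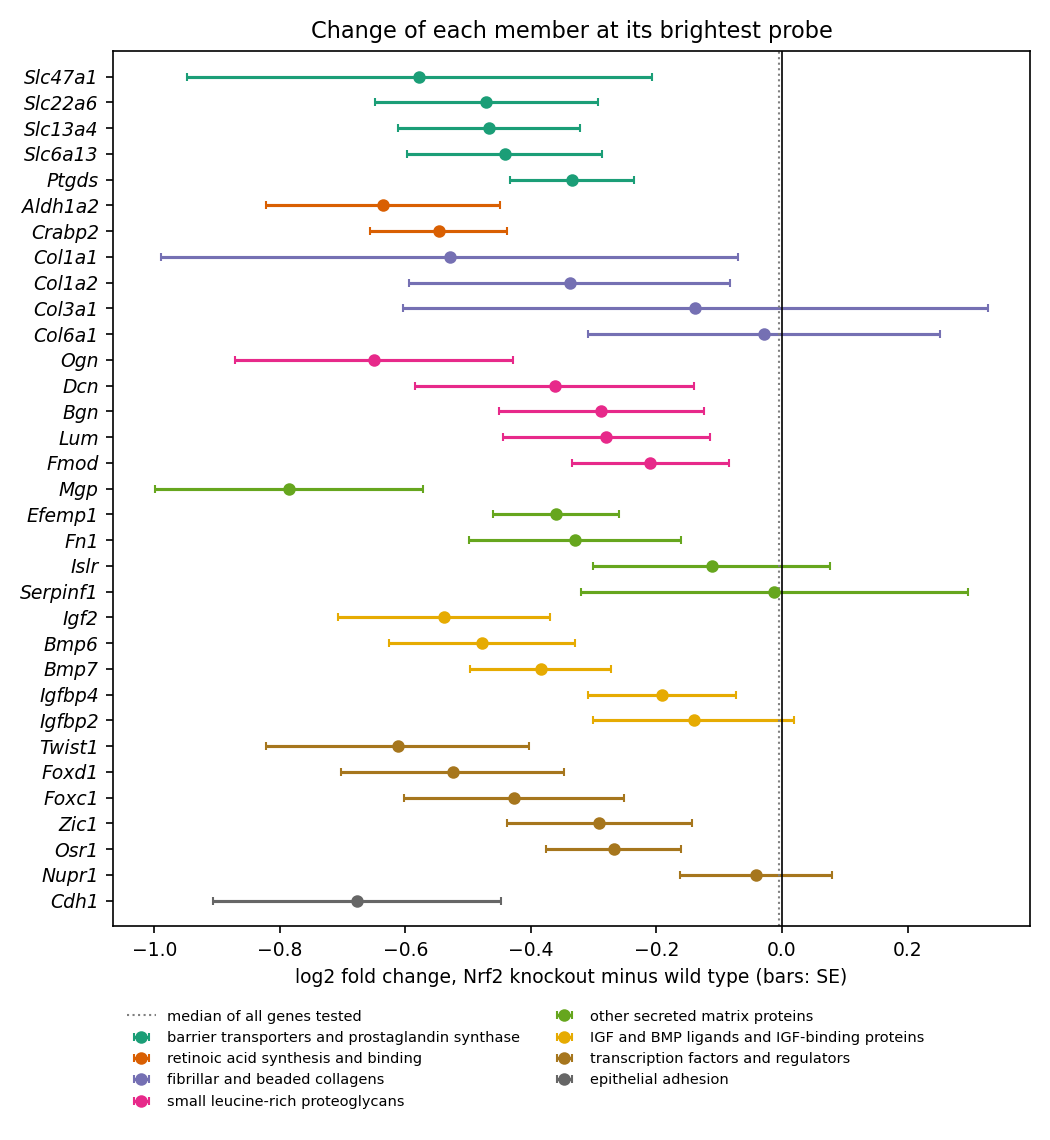
Log2 fold change of each of the 33 genes at its brightest probe, knockout minus wild type, on the horizontal axis, with genes grouped by role and coloured accordingly; bars are limma's standard errors and the dotted line is the median of all genes tested. All points lie left of 0, from −0.79 for Mgp to −0.012 for Serpinf1, and none passed the test.

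The arrays did not carry this difference equally. Knockout 1 gave the lowest value of 24 members, knockout 2 of 4 and knockout 3 of 2, while the lowest value lay in wild type 1 for 1 gene and in wild type 3 for 2. Among all genes, 25.1% were lowest in knockout 1. The highest value lay in wild type 1 for 18 members and in wild type 2 for 13, against 18.5% and 12.5% of all genes. Knockout 1 lay below all 3 wild type arrays for 29 members, against 38.5% of all genes, and knockouts 2 and 3 both did so for 13 members, against 21.6% of all genes. The median distance from the mean of the 6 arrays was −0.39, −0.17 and −0.056 in knockouts 1, 2 and 3, against 0.32, 0.26 and 0.035 in wild types 1, 2 and 3. Wild type 3 was thus the wild type array nearest to the knockouts, and knockout 3 the knockout array nearest to wild type.

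**Figure D2:**
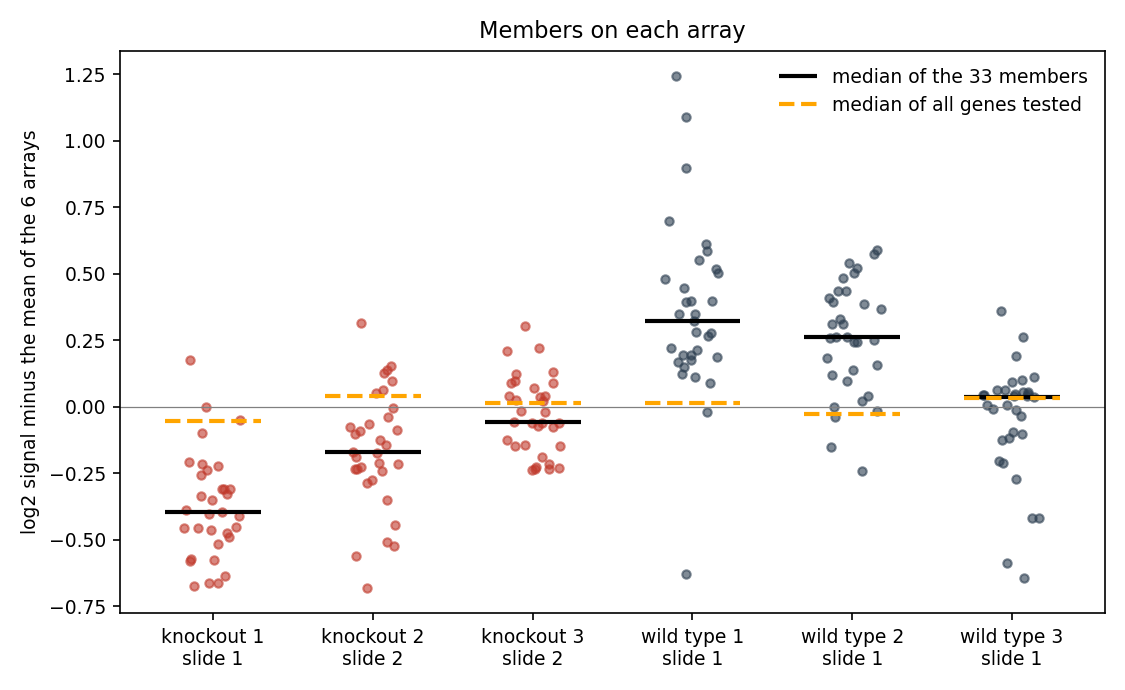
Distance of each of the 33 genes (points) from its mean over the 6 arrays, in log2 units, for each array. The black line is the median of the genes, −0.39, −0.17 and −0.056 in the knockouts and 0.32, 0.26 and 0.035 in wild type, and the dashed line the median of all genes tested.

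Within slide 1, where knockout 1 stands alone against the 3 wild type arrays, 32 of 33 members were below 0, against 65.9% of all genes, and the median was −0.56, against −0.060 over all genes. With slide as a fixed block the estimates were the same, 17 members were lower at an unadjusted p under 0.05, against 4.33% of all genes, and 0 passed (smallest adjusted p = 0.537 in limma). Nupr1, a small stress-induced nuclear protein gene, was the exception there at 0.15. Both estimates rest on knockout 1. Without knockout 1, 29 members were below 0, against 44.8% of all genes, with a median of −0.31 against 0.027 over all genes, but slide and genotype cannot be told apart in that comparison.

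Transporters and the prostaglandin synthase of the meninges made up the first role, with 5 of 5 below 0, a median of −0.47 and no overlap for 3. Ptgds makes prostaglandin D2 and is secreted into cerebrospinal fluid as a carrier of lipophilic molecules. Ptgds measured 8.26, 8.25 and 8.39 in knockout samples, against 8.68, 8.71 and 8.50 in wild type samples. The groups did not overlap, and the difference was −0.33 (SE 0.099, limma adjusted p = 0.307), 1.26-fold lower. Slc13a4, a sodium-sulfate cotransporter, measured 2.55, 2.82 and 2.95 in knockout samples and 3.40, 3.26 and 3.05 in wild type samples. Knockout 3 and wild type 3 were close, without overlap, at a change of −0.47 (SE 0.14, adjusted p = 0.307). Slc6a13, a transporter of GABA and taurine, measured 0.99, 1.17 and 1.07 in knockout samples and 1.41, 1.84 and 1.30 in wild type samples. Wild type 2 stood above the other wild types, and the change was −0.44 (SE 0.16, adjusted p = 0.313), or −0.28 without that array. For Slc22a6, an organic anion transporter, and Slc47a1, an organic cation and proton exchanger, the groups overlapped, at −0.47 (SE 0.18) and −0.58 (SE 0.37). The change of Slc47a1 was −0.27 without wild type 1 and −0.93 without wild type 3. It had the wider spread, with 0.24, 0.31 and 1.04 in knockout samples against 1.72, 1.21 and 0.40 in wild type samples.

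Both retinoic acid genes separated the genotypes on every array at the brightest probe, Crabp2 at that probe only. Aldh1a2 (chr9:71215789-71296243 in RefSeq's annotation of GRCm38.p6) is the dehydrogenase that makes retinoic acid in the meninges. Crabp2 (chr3:87948693-87953372) binds retinoic acid and carries it to nuclear receptors. Aldh1a2 measured 0.72, 1.24 and 1.23 in knockout samples and 1.86, 1.79 and 1.44 in wild type samples. Knockout 1 was lowest by a wide margin, and the change was −0.64 (SE 0.19, limma adjusted p = 0.307), 1.55-fold lower. Crabp2 measured 2.34, 2.46 and 2.46 in knockout samples and 3.02, 3.09 and 2.79 in wild type samples. The knockout arrays lay close together, and all lay below wild type 3. The change was −0.55 (SE 0.11, adjusted p = 0.307), with an unadjusted p of 0.0019, the smallest of the 33 genes. Crabp2 passed with array weights (−0.49, adjusted p = 0.0399) and without knockout 1 (−0.51, adjusted p = 0.0464), where slide and genotype cannot be told apart.

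The collagens showed no separation at the brightest probe, where Col1a1 and Col3a1 had the widest spread among wild type samples of the 33 genes (SD 0.92 and 0.91, n = 3). All 4 were below 0 at that probe, with a median of −0.24, 0 of 4 had an unadjusted p under 0.05, and the groups overlapped for each. At its other probe Col1a2 measured −0.42 (SE 0.14) without overlap, while every other tested probe of the 4 genes overlapped. Col1a1 and Col1a2 encode the chains of type I collagen, Col3a1 that of type III collagen, and Col6a1 a chain of the beaded type VI collagen. Col1a1 measured −0.057, 0.71 and 0.40 in knockout samples and 1.86, 0.75 and 0.032 in wild type samples. Wild type 1 stood far above the rest, and the change of −0.53 (SE 0.46) was −0.040 without it. Col3a1 measured −1.40, −0.77 and −0.53 in knockout samples and 0.26, −1.07 and −1.47 in wild type samples. Again wild type 1 stood alone, and the change of −0.14 (SE 0.47) turned to 0.37 without it. Col6a1 measured 3.71, 4.11 and 3.99 in knockout samples and 3.32, 4.26 and 4.31 in wild type samples. Wild type 1 was here the lowest of the 6 arrays, and the change was −0.028 (SE 0.28, limma adjusted p = 0.965).

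The small leucine-rich proteoglycans, which bind collagen fibrils, were 5 of 5 below 0 with a median of −0.29, and their groups overlapped at the brightest probe. At the other probe the groups did not overlap for Ogn (−0.70), Fmod (−0.62) and Lum (−0.37), and overlapped for Dcn (−0.39) and Bgn (0.18). Ogn (osteoglycin) had the largest change of them, at −0.65 (SE 0.22), and measured 0.57, 0.78 and 1.36 in knockout samples against 1.68, 1.66 and 1.32 in wild type samples. Knockout 3 lay just above wild type 3, so the groups overlapped by that pair of arrays. Dcn (decorin), Bgn (biglycan), Lum (lumican) and Fmod (fibromodulin) measured −0.36, −0.29, −0.28 and −0.21, and −0.16, −0.15, −0.15 and −0.098 without knockout 1.

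Among the other secreted matrix proteins, Mgp had the largest change of the 33 genes at the brightest probe over all 6 arrays. With slide as a block it was −0.65, and Ogn at −0.99, Aldh1a2 at −0.98, Twist1 and Col1a1 at −0.94 each were among those with larger changes. As the mean over all tested probes Mgp measured −0.59, against −0.68 for Foxd1 and −0.64 for Aldh1a2. Cdh1 (−0.68 and −1.51), Twist1 (−0.61 and −0.85) and Ogn (−0.65 and −0.70) also lay further from 0, at both of their probes. At the probes with −1.51 and −0.85 the groups did not overlap, and 2 of 3 knockout spots were well above background. Mgp measured 3.35, 2.93 and 3.37 in knockout samples and 4.31, 4.09 and 3.60 in wild type samples. The groups did not overlap, and the change was −0.79 (SE 0.21, limma adjusted p = 0.307). Mgp lies at chr6:136872435-136875823 in RefSeq's annotation of GRCm38.p6. Fn1 (fibronectin, a cell adhesion glycoprotein) measured 3.28, 3.32 and 3.68 in knockout samples and 3.94, 3.85 and 3.48 in wild type samples. Knockout 3 exceeded wild type 3, so the groups overlapped at a change of −0.33 (SE 0.17, adjusted p = 0.373). Efemp1, a fibulin of elastic matrix, had no overlap at −0.36 (SE 0.10). Islr, a membrane protein marking stromal cells, measured −0.11, and Serpinf1, the secreted anti-angiogenic factor PEDF, −0.012. Like Col1a1, Col1a2 and Col3a1, but unlike Col6a1, Serpinf1 was highest in wild type 1. It measured 2.76 there against 2.02 and 1.75 in the other wild types, and its change was 0.28 without wild type 1.

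The growth factors Igf2, Bmp6 and Bmp7 were each lower without overlap. Igf2, an imprinted insulin-like growth factor of the meninges and choroid plexus, measured 3.46, 2.99 and 3.28 in knockout samples and 4.02, 3.77 and 3.56 in wild type samples. Knockout 1 was the highest knockout here, unlike for most members, and the change was −0.54 (SE 0.17, limma adjusted p = 0.307), or −0.32 with slide as a block. Bmp6 measured −0.93, −0.76 and −0.45 in knockout samples and −0.39, −0.11 and −0.21 in wild type samples. Knockout 3 and wild type 1 were close, at a change of −0.48 (SE 0.15, adjusted p = 0.307). Bmp7 measured 1.42, 1.43 and 1.4996 in knockout samples and 1.92, 1.95 and 1.63 in wild type samples. Its knockout arrays spanned a narrow range (SD 0.042, n = 3), and the change was −0.38 (SE 0.11, adjusted p = 0.307). Of the insulin-like growth factor binding proteins, which hold these factors outside the cell, Igfbp4 measured 4.80, 5.07 and 4.89 in knockout samples and 4.997, 5.27 and 5.07 in wild type samples. The groups overlapped, at −0.19 (SE 0.12, adjusted p = 0.430), and Igfbp2 measured −0.14 (SE 0.16).

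**Figure D3:**
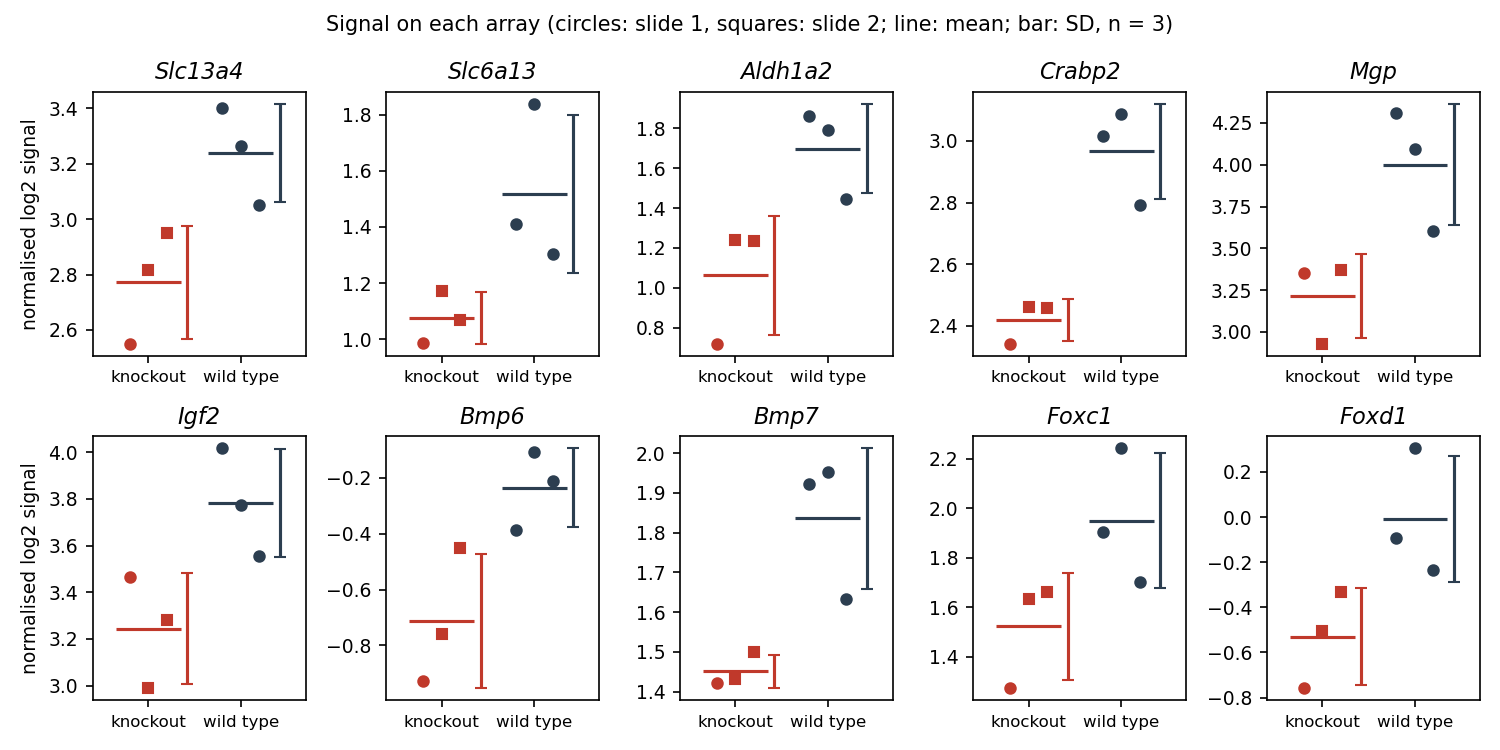
Normalised log2 signal on each array for the 10 genes with the largest changes among those without overlap, knockout left and wild type right. Lines are means, bars SD (n = 3 each), circles arrays of slide 1 and squares arrays of slide 2; the axes differ between panels and do not start at 0. No knockout point reaches a wild type point in any panel.

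Of the 6 transcription factors and regulators, 6 were below 0, with a median of −0.36, and the groups did not overlap for Foxc1, Foxd1 and Osr1. Foxc1, a forkhead factor needed for meninges to form, measured 1.27, 1.63 and 1.66 in knockout samples and 1.91, 2.24 and 1.703 in wild type samples. Knockout 3 lay just below wild type 3, at a change of −0.43 (SE 0.18, limma adjusted p = 0.330). Foxd1, a forkhead factor of stromal progenitors, measured −0.76, −0.51 and −0.33 in knockout samples and −0.093, 0.31 and −0.23 in wild type samples. The change was −0.52 (SE 0.18, adjusted p = 0.311). Osr1, a zinc finger factor of mesenchyme, measured 4.453, 4.28 and 4.23 in knockout samples and 4.67, 4.455 and 4.64 in wild type samples. Knockout 1 and wild type 2 nearly met, at a change of −0.27 (SE 0.11, adjusted p = 0.327), or −0.14 with slide as a block. The other probes of Osr1 read −2.39 to −1.54 over the 6 arrays, so its high level rests on the brightest probe. Twist1, a mesenchymal bHLH factor, measured −0.61 (SE 0.21), Zic1, a zinc finger factor of dorsal brain and meninges, −0.29 (SE 0.15), and Nupr1 −0.041 (SE 0.12). Cdh1 (E-cadherin), an adhesion protein found in the arachnoid barrier layer, was the remaining member at −0.68 (SE 0.23), with overlap.

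The members had 83 probes, 2 to 4 per gene, which share the gene's transcripts, and 82 were tested. The exception was a Col3a1 probe, dim on all 6 arrays. In limma 0 of the 82 passed, against 0.00661% of all tested probes on the lower side and 0.00283% on the higher side. Of the 82, 75 were lower in the knockout and 7 higher, against 44.3% of 39129 coding probes below 0, and 32 had no overlap on the lower side, against 9.69% of coding probes. For 26 genes every tested probe was lower. Mgp had −0.40 at its other probe, where the groups overlapped (knockout 3 at 3.08 and wild type 3 at 2.82), and Slc6a13 had −0.20 and −0.26, also with overlap. Crabp2 had −0.29 at its other probe, with overlap, and that probe was far dimmer, at −4.08 to −3.30 over the 6 arrays. Igf2 had −0.64 without overlap and −0.24 with it, and Osr1 −0.30 with overlap and −0.34 without it. Ptgds, Bmp6 and Bmp7 also overlapped at another probe. The reverse held for Slc22a6, Col1a2, Lum, Ogn, Fmod, Igfbp4, Zic1, Twist1 and Cdh1, which overlapped at the brightest probe but not at another. The probes higher in the knockout belonged to Bgn (0.18), Slc22a6, Col6a1, Igfbp2, Islr, Nupr1 and Serpinf1. That of Slc22a6 gave 1.57 (SE 1.42), with −2.47, −1.67 and −2.03 in knockout samples against −7.20, −1.61 and −2.07 in wild type samples. The spot of wild type 1 was not well above background there.

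Circular RNAs (circRNAs), closed loops made by back-splicing, can be made from the same transcripts. Their positions were read as GRCm38, since 97.3% of the names lay inside a coding gene of that build, against 35.9% after a shift by 1 Mb. There were 111 circRNAs inside 14 members, of which 105 were tested. Of these, 4 lay on the strand opposite to their host (2 of them below 0) and do not read the host gene, which left 101 from 13 members. In limma 0 of the 101 passed (0.00289% of all 34554 circRNAs passed), and 12 had an unadjusted p under 0.05, against 14.8% of all circRNAs. Their median was −0.13 with 69 below 0, against a median of 0.082 and 35.7% below 0 over all circRNAs. The groups did not overlap for 11 on the lower side and 3 on the higher side, against 6.82% and 16.5% of all circRNAs. Fn1 hosted 64 of them, which share exons, and 53 of these were below 0 with a median of −0.18. The pooled median and count thus rest mostly on this 1 gene. For Col3a1, 7 of 13 were below 0, for Col1a1 3 of 5 and for Col1a2 2 of 2. Bgn, Bmp6, Dcn and Efemp1 had 1 of 1 each. For Igfbp2 0 of 6 were below 0, for Bmp7, Col6a1 and Serpinf1 0 of 2 each, and for Igfbp4 0 of 1.

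The start of each gene was searched for the core of the antioxidant response element, the sequence NRF2 binds with small MAF proteins, in the letters TGACNNNGC on both strands. RefSeq promoters of GRCm38.p6, 250 bases before to 50 after a start, were at hand for 23 members, with 29 starts. A match lay in 6 of these, of Aldh1a2, Slc6a13, Bmp6, Twist1, Igf2 and Igfbp2. That is 20.7% (95% Wilson interval 9.85 to 38.4%), against 12.4% of all 32851 promoters. The interval takes the 29 starts as independent draws, though they belong to 23 chosen genes. It is therefore no test against the share of all promoters. With an A required after these letters, 1 promoter matched (3.45%), against 3.04% of all. A match is a description and not a site of binding. The 250 bases before the start of the 4 genes whose match lies there are shown with the match in capitals, since 3 of them (Aldh1a2, Slc6a13 and Bmp6) are among the genes without overlap. All 4 are on the plus strand. They are chr9:71215539-71215788 for Aldh1a2, chr6:121300038-121300287 for Slc6a13, chr13:38345466-38345715 for Bmp6 and chr12:33957421-33957670 for Twist1. The Slc6a13 match is on the opposite strand, so its capitals read as the reverse complement of the motif.
Aldh1a2: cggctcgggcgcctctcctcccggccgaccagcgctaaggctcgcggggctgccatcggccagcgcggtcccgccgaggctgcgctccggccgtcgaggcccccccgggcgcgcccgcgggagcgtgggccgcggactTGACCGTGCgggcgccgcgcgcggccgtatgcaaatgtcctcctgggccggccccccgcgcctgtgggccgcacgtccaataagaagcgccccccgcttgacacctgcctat
Slc6a13: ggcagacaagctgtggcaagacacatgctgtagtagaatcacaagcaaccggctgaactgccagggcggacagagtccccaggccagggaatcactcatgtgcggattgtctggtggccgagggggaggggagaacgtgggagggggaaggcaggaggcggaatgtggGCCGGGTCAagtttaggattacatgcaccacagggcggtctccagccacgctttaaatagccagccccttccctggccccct
Bmp6: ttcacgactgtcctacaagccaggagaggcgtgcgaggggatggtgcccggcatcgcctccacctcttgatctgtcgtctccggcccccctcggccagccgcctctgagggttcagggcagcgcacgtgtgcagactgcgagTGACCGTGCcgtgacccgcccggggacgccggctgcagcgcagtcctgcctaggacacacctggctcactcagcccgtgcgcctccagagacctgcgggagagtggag
Twist1: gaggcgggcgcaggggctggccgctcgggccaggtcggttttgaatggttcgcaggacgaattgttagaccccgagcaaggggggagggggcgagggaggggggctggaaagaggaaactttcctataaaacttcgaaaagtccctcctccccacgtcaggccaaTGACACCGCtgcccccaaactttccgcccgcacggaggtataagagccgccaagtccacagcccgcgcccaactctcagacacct
The matches began 112, 82, 108 and 85 bases before the start in that order, and the matched letters of Aldh1a2 and Bmp6 were the same.

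Other genes of the same pathways gave 0 calls in limma in every list, and their counts at an unadjusted p under 0.05 are given beside the 9.46% lower and 2.93% higher of all genes. Of 18 other fibroblast and meningeal transcription factors tested, 13 were below 0, 8 were lower and 0 higher, with a median of −0.32. Foxc2, a forkhead factor and close relative of Foxc1, measured −0.95 (SE 0.28), and Tbx15, a T-box factor, −0.73 (SE 0.29). Of 22 other collagens, 11 were below 0, 3 were lower and 2 higher, with a median of −0.017, or −0.27 with slide as a block. Col26a1 measured 1.36 (SE 0.46), with 1.40, 1.69 and 1.54 in knockout samples against 1.33, −0.38 and −0.40 in wild type samples, and Col4a6, a basement membrane chain, −0.96 (SE 0.27). Col4a6 measured 1.66, 0.79 and 0.60 in knockouts 1, 2 and 3, against 1.92 to 2.05 in wild type samples, and its change was −0.32 with slide as a block. Of 43 other matrix proteins and enzymes, 26 were below 0, 6 were lower and 0 higher, with a median of −0.079, and with slide as a block 35 were below 0, with a median of −0.20. Loxl2, a collagen cross-linking oxidase, measured −0.93 (SE 0.32), Emilin1, an elastic fibre glycoprotein, −0.91 (SE 0.32), and Omd, a small proteoglycan, −0.74 (SE 0.21). Loxl2 measured −0.085, −1.23 and −1.33 in knockouts 1, 2 and 3, against 0.029 to 0.068 in wild type samples. With slide as a block, the changes of Loxl2 and Emilin1 were −0.13 and −0.21 and that of Omd −0.76.

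Of 14 other retinoid genes, 8 were below 0, 2 were lower and 0 higher, with a median of −0.051. Stra6, the cell surface receptor for retinol uptake, measured −1.37 (SE 0.46). Its values were 2.60, 1.11 and 0.75 in knockout samples against 3.06, 2.82 and 2.70 in wild type samples, so that knockout 1 was near wild type and the slide 2 arrays far below, and its change was −0.26 with slide as a block. Of 28 other IGF and BMP pathway genes, 16 were below 0, 3 were lower and 1 higher, with a median of −0.039. The 3 were H19, the imprinted RNA next to Igf2, at −1.28 (SE 0.35), Bmp4 at −0.68 (SE 0.18) and Smad6, an inhibitor of BMP signalling, at −0.68 (SE 0.14). H19 measured −2.04, −3.25 and −3.42 in knockout samples against −1.65, −1.49 and −1.73 in wild type samples, again with the slide 2 arrays lowest, and its change was −0.42 with slide as a block. Of 17 other transporters, 12 were below 0, with 0 lower and 0 higher at that level and a median of −0.085.

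Markers of other cells were set beside these values. Summed signals, in multiples of the array's 75th percentile, of the 33 genes, were 481 to 532 in knockout samples and 575 to 663 in wild type samples, without overlap. Ptgds alone made up 61.3 to 63.7% of these sums, and without it they were 175 to 198 in knockout samples and 212 to 251 in wild type samples. Border macrophages, which live in the meninges and around vessels, showed the same direction, with 9 of 9 markers below 0. Of these, 7 had no overlap, against 12.9% of all genes lower, and 7 an unadjusted p under 0.05, against 9.46%. Their median was −0.65, led by Cd163 at −0.78, the hyaluronan receptor Lyve1 at −0.76 and Cd209f at −0.69, with sums of 5.19 to 7.07 in knockout samples and 7.98 to 9.41 in wild type samples. Red blood cell markers ran the other way, with 5 of 6 above 0 and 4 of 6 higher at an unadjusted p under 0.05, against 2.93% of all genes. Their median was 0.48, with sums of 839 to 991 in knockout samples against 626 to 811 in wild type samples. Hbb-bt, a beta-globin, measured 0.79, Alas2, the first enzyme of heme synthesis in red cells, 0.57 and Hba-a2, an alpha-globin, 0.53. With slide as a block the median of this list was 0.29. Endothelial markers were 5 of 10 below 0 with a median of −0.0069, but their sums, 66.5 to 73.4 in knockout samples and 76.1 to 82.7 in wild type samples, did not overlap either. Of ependymal markers, 6 of 7 were below 0 and 2 lower without overlap, against 12.9% of all genes. Of striatal neuron markers, 4 of 7 were below 0 and 3 lower without overlap. Microglia had 7 of 7 markers below 0, at a median of −0.061, but 0 without overlap. The part of these cells in the result was not tested.

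The medians for pia and dura markers depended on how slide was treated, while that for arachnoid markers changed little. Over the 6 arrays, of 9 for pia and perivascular fibroblasts, 3 were below 0 with a median of 0.027, of 9 for arachnoid 7 with a median of −0.24, and of 7 for dura 4 with a median of −0.019. At an unadjusted p under 0.05 in limma, 1, 4 and 0 were lower in that order and 0 higher, against 9.46% and 2.93% of all genes. The groups did not overlap for 1, 3 and 0 of them, all lower, against 12.9% of all genes lower. With slide as a block, 6 of 9, 7 of 9 and 6 of 7 were below 0, with medians of −0.12, −0.22 and −0.19. In the arachnoid list Krt8, a keratin, measured −1.32 (SE 0.36), Wnt6 −0.69 (SE 0.14) and Krt18 −0.47 (SE 0.18), and −0.46, −0.70 and −0.085 with slide as a block. The pia list sums were 113 to 130.0 in knockout samples and 110.3 to 123 in wild type samples, with Lama1, a laminin chain, at −0.58 (SE 0.19). Choroid plexus, the epithelium that makes cerebrospinal fluid, shares Igf2, Ptgds and several transporters with the meninges. Of its 16 tested markers 12 were below 0 with a median of −0.43, or −0.20 with slide as a block. At an unadjusted p under 0.05 in limma, 5 of the 16 were lower and 0 higher, against 9.46% and 2.93% of all genes. The groups did not overlap for 4, all lower, against 12.9% of all genes lower. Its defining gene Ttr measured 0.22 (SE 0.16), or −0.071 with slide as a block. Otx2 and Cldn2 were not well above background on all 3 arrays of either genotype. The sums of this list were 4.81 to 5.99 in knockout samples and 5.52 to 6.41 in wild type samples, and its part in the result was not tested.

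**Figure D4:**
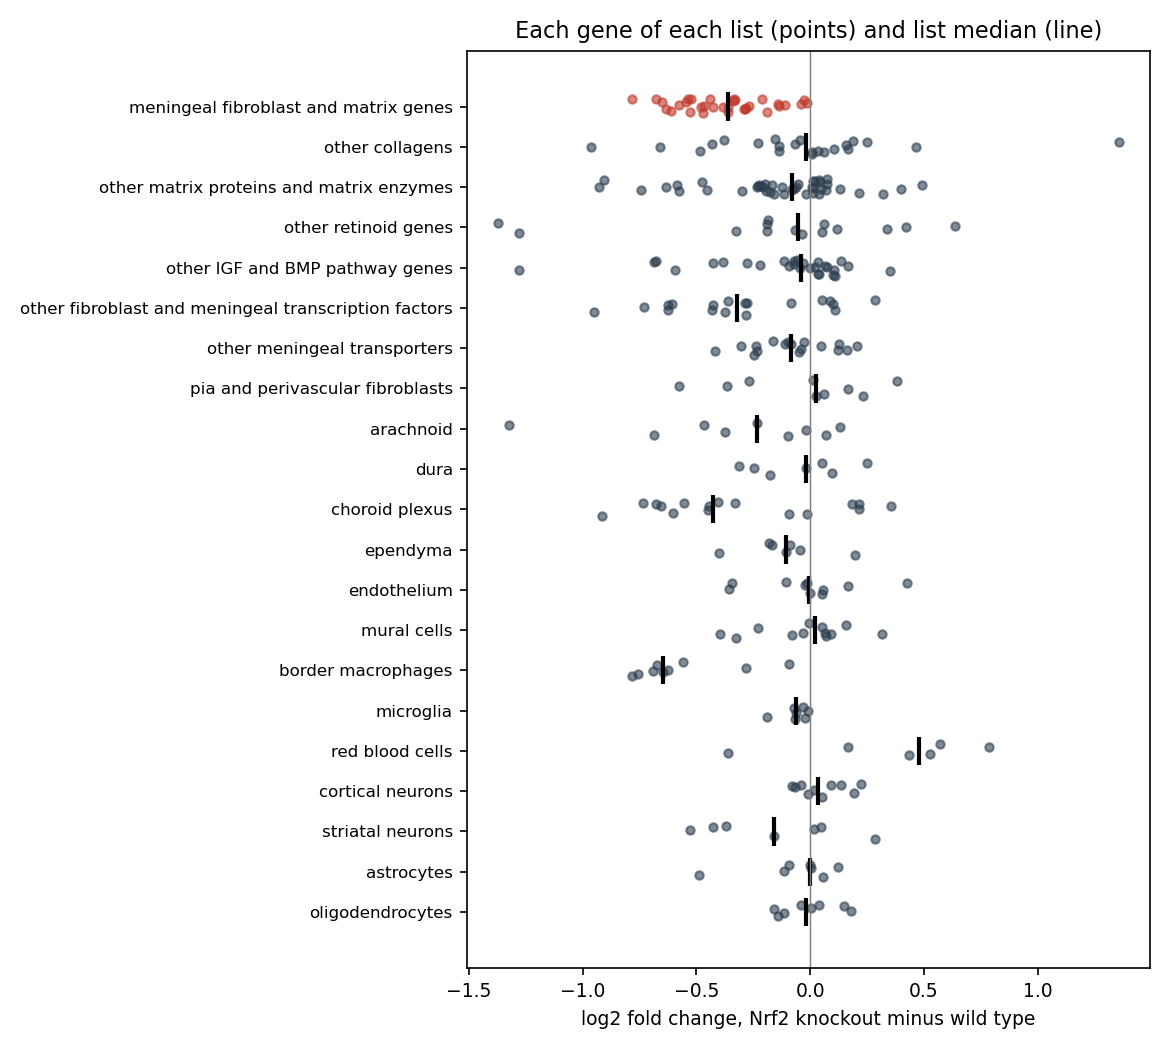
Log2 fold change, knockout minus wild type, of each tested gene (points) of each list, with the list median as a line. The 33 genes are at the top with a median of −0.36; border macrophage markers have a median of −0.65 and red blood cell markers 0.48.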

How the data were processed

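Intensity values on a linear scale were deposited by the authors as scanner output of 6 one-colour Agilent arrays, and the file headers name Feature Extraction 12.0.3.1. Version 10.7 and limma stand in the submitters' processing notes. The authors' processed values, on a log2 scale, correlated with log2 signal at r of at least 0.99986 and served as an alternative. The steps used to make them are not stated in those notes. The log2 of the processed signal minus the array's 75th percentile was computed. Control spots (4974) were left out, and outlier spots were treated as missing. A probe was tested if well above background on all 3 arrays of a genotype (105940 of 150305 probes). Knockout minus wild type was fitted by lmFit and eBayes of limma 3.58.1 (R 4.3.3), two-sided. Benjamini-Hochberg adjustment ran over every tested probe, and 0.05 was the threshold. The fit was tested on simulated data. The 33 genes and the other lists were chosen with earlier results of these data known. Genes named in full were the 10 with the largest change among those without overlap and the 6 with the highest mean signal, and at most 3 per other list by size of change, with others named after their values were seen. The values of 1 gene of the retinoid list are not reported here. The number of arrays, 3 per genotype, limits the precision.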

Additional observations from a re-analysis of the deposited data

How the results depend on the processing

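In none of the alternatives did the median of the 33 genes rise above 0, and no member passed on the higher side. The alternatives covered background correction, normalisation, filters, outlier spots, slide, array weights, the replicate number, each array in turn and the probe used. The median was −0.56 with slide as a fixed block and on slide 1 alone, both resting on knockout 1, and −0.49 to −0.31 when 1 array was left out. Genes lower past the threshold numbered 1 with array weights, where knockout 1 had a weight of 0.29 against 0.85 to 1.68 for the others. They numbered 0 to 1 when 1 array was left out, with 1 without knockout 1. The gene was Crabp2 in both cases. The mean over a gene's probes has no test. With the array median as the scale, 10 members had no overlap and 30 were below 0, and with array weights 30 were below 0. Members without overlap numbered 30 on slide 1 alone, 29 of them lower, against 38.5% of all genes lower, with Nupr1 higher. They numbered 13 to 25 with 1 array left out, with 23 without knockout 3 and 25 without wild type 3. Without knockout 1 there were 13, all lower, against 21.6% of all genes. The share of all genes was not taken for the other settings. The higher counts follow in part from there being fewer arrays to overlap. Col6a1 changed sign: it measured 0.023 with the array median as the scale, 0.088 as the mean over its probes, and −0.35 to 0.15 with 1 array left out (0.084 without knockout 1, 0.12 without wild type 2 and 0.15 without wild type 3). In all 6 members lay above 0 without at least 1 of the arrays, the others being Col3a1 (0.11 without knockout 1, 0.37 without wild type 1), Serpinf1 (0.21 and 0.28), Islr (0.028 without knockout 1), Igfbp2 (0.023 without wild type 1) and Nupr1 (0.023 without knockout 3, 0.010 without wild type 1). Nupr1 was also at 0.017 with normexp. Without knockout 1, 11 members moved by over 1.5 times towards 0 or past it. The causes were not tested. With the longer motif the share of member promoters was 3.45%. The replicate numbers did not pair the samples, as deviations of same-numbered samples correlated at −0.013, −0.050 and 0.038, and with the replicate number as a block the median was −0.36, 0 genes passed and the smallest adjusted p was 0.371. For the circRNAs on their host's strand, a restriction chosen after seeing the data, slide as a block gave a median of −0.22 and 0 past the threshold in limma. With 3 arrays per genotype, no change of the size seen here passed adjustment over all probes, except that of Crabp2 as given above.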
